A study of Mus musculus and Bos taurus with 6 samples.

Results

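Broad SOX9 regions were the peaks wider than 2000 bp on numbered chromosomes of 2 ChIP-seq peak lists from fetal testis, 1 of mouse and 1 of cattle. There were 654 such regions among 18407 deposited peaks, 142 of 6419 in the mouse list and 512 of 11988 in the cattle list. They were chosen by their width alone, so width is described below and not tested. The rule leaves out the X chromosome, where the mouse list had 17 peaks, all of 2000 bp or less, and the cattle list had 192 peaks, 6 of them wider than 2000 bp. Mouse chromosome 16 was not analysed here.

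The mouse samples were Swiss OF1 testes at E13.5 and the cattle samples Holstein testes at day 90 after fertilization, with no genetic change or treatment named in the labels. Each species had 2 libraries immunoprecipitated with a rabbit antibody against SOX9 and 1 library of input DNA. The tissue was cross-linked with disuccinimidyl glutarate and then formaldehyde in both species. How many animals entered a library is not stated. Each list stands for the libraries of its species together and holds positions and widths only. No spread between replicates, read depth or peak height could therefore be formed, and the tissue label could not be checked against marker genes. Intervals below are 95% intervals for counting error only, since peaks of 1 list are not replicates and close peaks are not independent. No test was made between broad and remaining peaks.

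SOX9 is an HMG-box transcription factor that bends DNA and, after its activation by SRY, drives the supporting cells of the XY gonad to become Sertoli cells. Sertoli cells then organise the testis cords and secrete anti-Müllerian hormone, and SOX9 goes on to maintain their identity. The width of a ChIP-seq peak is the stretch over which reads from the precipitated fragments pile up above background. It can be wide where several sites lie side by side, where a complex holds a long stretch of chromatin, or where the signal is very strong, and width alone does not separate these cases. The double cross-linking also captures proteins that reach DNA through partners.

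Broad regions were 2.22% of the 6402 mouse peaks on numbered chromosomes (exact interval 1.87 to 2.61%) and 4.34% of the 11796 cattle peaks (3.98 to 4.72%). They held 5.16% of all bases under mouse peaks and 7.85% of those under cattle peaks. Most lay not far above the limit. The median broad width was 2218 bp in mouse, with quartiles at 2108 and 2486 bp, and 2177 bp in cattle, with quartiles at 2075 and 2366 bp. Widths from 2000 to 2100 bp made up 33 of the 142 mouse regions and 170 of the 512 cattle regions. Above 2500 bp there were 35 regions in mouse and 85 in cattle, and above 3000 bp there were 9 and 18. The limit cut through a continuous range of widths. The narrowest mouse members measured 2002, 2012 and 2028 bp and the widest peaks left out 1998, 1996 and 1996 bp. In cattle 3 members measured 2001 bp, and the peaks just left out measured 2000, 1999 and 1999 bp.

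The widest regions did not share one kind of surrounding. The mouse region of 4004 bp on chromosome 19 (53384716 to 53388719, mm9) had its nearest peak 15.3 kb away, a narrow one of 652 bp, and 6 other peaks within 500 kb. The region of 3938 bp on chromosome 14 (47501551 to 47505488) also had 6, with the nearest at 49.0 kb. On chromosome 6 the region of 3587 bp (99470328 to 99473914) had 3 and lay 142 kb from the nearest peak. The region of 3535 bp on chromosome 11 (51669180 to 51672714) had 9, and that of 3511 bp on chromosome 10 (13684302 to 13687812) had 4. Against a median of 5 for the remaining mouse peaks, these regions thus fell on both sides.

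The cattle regions ranged more widely still. The region of 4764 bp on chromosome 1 (98392120 to 98396883, UMD3.1) had 5 other peaks within 500 kb and its nearest peak at 39.3 kb. The region of 3875 bp on chromosome 3 (8102309 to 8106183) had 17 and lay 3.62 kb from another broad region. The region of 3864 bp on chromosome 13 (3873873 to 3877736) had none within 500 kb, and neither had the region of 3528 bp on chromosome 21 (37272324 to 37275851), whose nearest peak was 1577 kb away. The region of 3570 bp on chromosome 11 (64766995 to 64770564) had a peak of 972 bp at 1.86 kb and belonged to a run of 3 peaks. Crowded and solitary places were thus both found among the cattle regions of greatest width.

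Broad regions were distributed over every numbered chromosome of both lists, but not in equal shares. In mouse, chromosomes 3, 10 and 18 had the highest shares. Chromosome 3 had 15 broad regions among 357 peaks, or 4.20% (2.37 to 6.84%), and chromosome 10 had 15 among 359, or 4.18% (2.36 to 6.80%). Chromosome 18 had 8 among 204, or 3.92% (1.71 to 7.58%). The lowest shares were on chromosome 6 with 3 of 331 peaks (0.906%, 0.187 to 2.63%), chromosome 4 with 5 of 453 (1.10%, 0.359 to 2.56%) and chromosome 17 with 3 of 236 (1.27%, 0.263 to 3.67%). Among the widest 5% of mouse peaks, chromosome 4 turned from below the list to above it, at 5.52% against 5.01%. Only the intervals of chromosomes 3 and 10 lay wholly above the list's share of 2.22%, with no adjustment over the 18 chromosomes, and none lay wholly below it. Chromosomes 3 and 10 together thus held 30 of the 142 regions, 10.6% of the regions each, against 5.46% and 5.50% of the remaining peaks.

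On mouse chromosome 3 the regions lay between 30992785 and 148653378. Their gaps to the nearest peak ran from 5.87 kb to 2135 kb with a median of 139 kb, against 95.1 kb for the remaining peaks there. On chromosome 10 the median was 77.5 kb, close to the 80.4 kb of the remaining peaks. Chromosome 18 lay at 232 kb against 86.1 kb. These medians rest on 15, 15 and 8 regions, and the gaps on chromosome 18 ran from 0.042 to 1656 kb. Whether these chromosomes differ in the isolation of their broad regions was not tested.

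In cattle, chromosome 6 had the highest share, with 25 broad regions among 309 peaks, or 8.09% (5.30 to 11.7%). It was one of the chromosomes with the fewest peaks for its length, 2.61 per Mb of the stretch between its outermost peaks. Chromosome 28 followed with 13 of 199 (6.53%, 3.52 to 10.9%) and chromosome 24 with 14 of 220 (6.36%, 3.52 to 10.5%). Chromosome 3, with 40 of 655 (6.11%, 4.40 to 8.22%), held the largest number. The lowest shares were those of chromosome 12 with 4 of 241 (1.66%, 0.454 to 4.20%), chromosome 25 with 11 of 437 (2.52%, 1.26 to 4.46%) and chromosome 1 with 13 of 511 (2.54%, 1.36 to 4.31%). The intervals of chromosomes 3 and 6 lay above the list's 4.34%, and those of chromosomes 1, 12 and 18 lay below it, with no adjustment over the 29 chromosomes. For chromosome 18 the upper end equalled the list's share in the printed digits, so this case is borderline. Chromosomes 6, 12 and 20 are all sparsely bound, with 2.61, 2.66 and 2.54 peaks per Mb, yet their broad shares were 8.09%, 1.66% and 3.30%. The intervals of chromosomes 6 and 12 did not overlap. As these were the highest and the lowest share of the list, this is no test of a difference. Above 2500 bp the order of chromosome 6 turned, where its only region (3341 bp) made 0.324% of its peaks against 0.721% of the list.

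**Figure D1:**
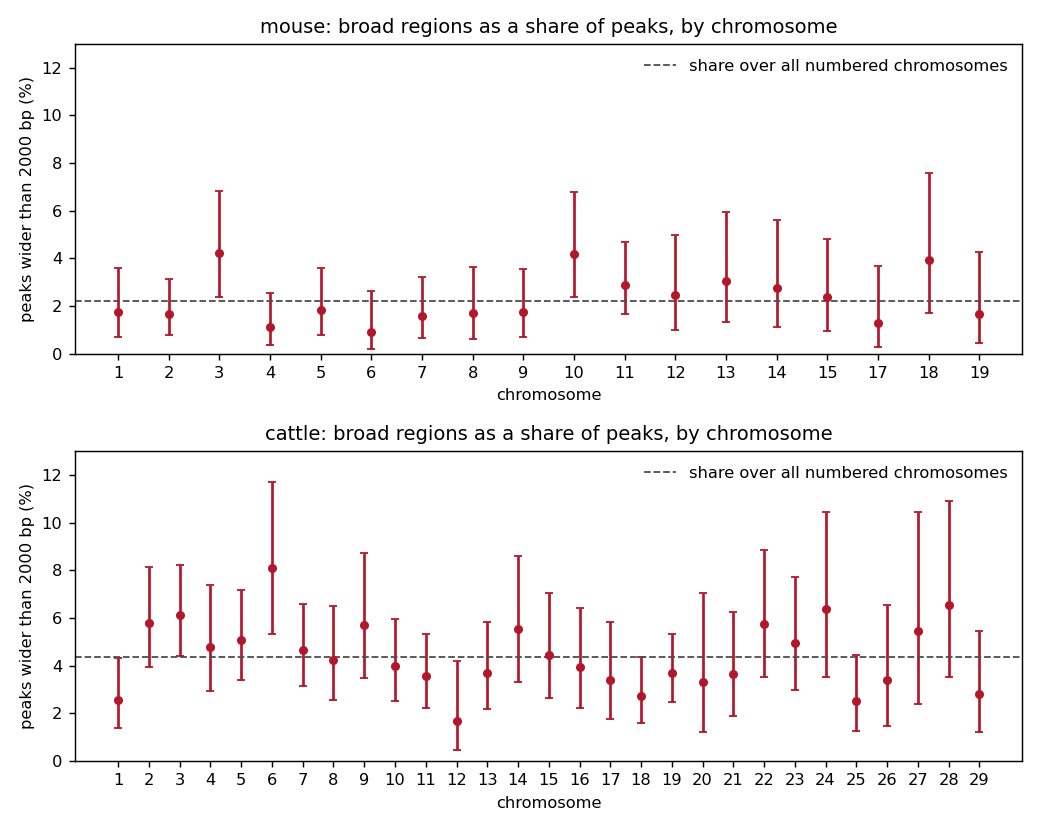
Share of peaks wider than 2000 bp on each numbered chromosome (y axis, percent) in the mouse list (top) and the cattle list (bottom), with exact 95% intervals as bars and the share over all numbered chromosomes as a dashed line at 2.22% and 4.34%. The mouse intervals of chromosomes 3 and 10 and the cattle intervals of chromosomes 3 and 6 lie above the line. Those of cattle chromosomes 1 and 12 lie below it, and that of cattle chromosome 18 ends at the line.

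Broad regions were also counted on the chromosomes most densely bound by SOX9. Mouse chromosome 11, with 4.66 peaks per Mb, had 16 broad regions, the most of any mouse chromosome, and a share of 2.90% (1.67 to 4.66%). Cattle chromosome 19, with 12.4 peaks per Mb, had 27 regions and a share of 3.69% (2.45 to 5.33%). Cattle chromosomes 18 and 25 held 17 and 11 regions at shares of 2.73% (1.60 to 4.34%) and 2.52% (1.26 to 4.46%). Mouse chromosome 19 held 4 at 1.68% (0.460 to 4.25%). Mouse chromosome 7, less densely bound at 2.97 peaks per Mb, held 7 at 1.58% (0.638 to 3.23%). The intervals of these chromosomes overlapped within each list. Over the chromosomes of a list, Spearman's rho between the broad share and the number of peaks per Mb was -0.27 in mouse (n = 18) and -0.24 in cattle (n = 29). Pearson's r was -0.12 and -0.32. Mouse chromosomes held 0.0205 to 0.135 broad regions per Mb and cattle chromosomes 0.0441 to 0.456. The rho of this number with the number of peaks per Mb was 0.16 and 0.59 respectively. These are descriptions, since the chromosomes share libraries and peak calling and the broad regions are themselves counted among the peaks.

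The median distance to the nearest peak was longer for broad regions than for all remaining peaks together in both lists. Edge to edge, the median gap was 97.2 kb in mouse (interval 67.3 to 139 kb, quartiles 31.0 and 263 kb) against 65.1 kb for the 6260 remaining peaks (62.4 to 67.3 kb, quartiles 24.0 and 148 kb). In cattle it was 47.9 kb (40.4 to 56.3 kb, quartiles 13.1 and 117 kb) against 26.6 kb for the 11284 remaining peaks (25.5 to 27.5 kb, quartiles 6.14 and 75.7 kb). The broad median was thus 1.49 times the other in mouse and 1.80 times in cattle. The cattle intervals were well apart, while the mouse interval began where that of the remaining peaks ended. The gap lengthened with width already below the limit. Peaks of 1750 to 2000 bp had a median gap of 95.8 kb in mouse (76.0 to 122 kb) and 43.1 kb in cattle (38.5 to 48.3 kb), and mouse peaks of 1500 to 1750 bp one of 105 kb. The intervals of the peaks of 1750 to 2000 bp overlapped those of the broad regions in both lists. Between midpoints, a measure that includes part of the peak widths, the medians were 98.9 against 66.1 kb and 49.6 against 27.7 kb. Within chromosomes that held at least 5 broad regions, the broad median was the longer on 11 of 15 mouse chromosomes and 23 of 28 cattle chromosomes. The exceptions were mouse chromosomes 2, 8, 10 and 12 and cattle chromosomes 2, 18, 19, 21 and 28. The largest differences among them were on mouse chromosomes 8 (29.9 against 69.1 kb) and 12 (33.7 against 70.6 kb) and on cattle chromosome 28 (41.2 against 60.9 kb).

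**Figure D2:**
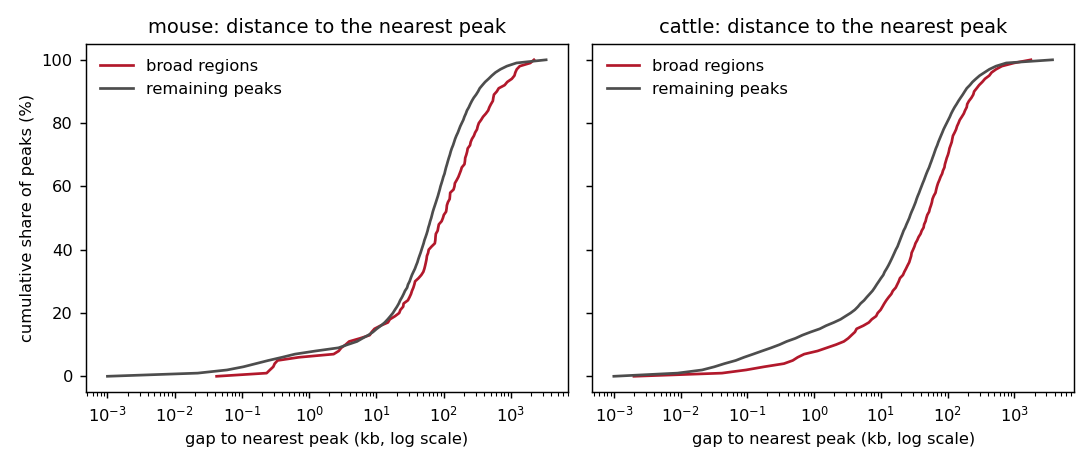
Cumulative share of peaks (y axis, percent) by the edge-to-edge gap to the nearest peak (x axis, kb, log scale) for broad regions (red) and remaining peaks (grey). The mouse curves run together up to about 10 kb and part beyond it, while the cattle curve of broad regions lies to the right over most of the range, with medians of 47.9 and 26.6 kb.

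At short range the values of broad and remaining peaks lay close together in mouse and apart in cattle, a difference between the lists that was not tested. In mouse, 22 of 142 broad regions had another peak within 10 kb, or 15.5% (9.97 to 22.5%), which is near the 14.9% of all mouse peaks and the 14.9% of the remaining ones. With a limit of 1800 bp the mouse order turned, to 11.8% against 15.1%. In cattle, 108 of 512 did, or 21.1% (17.6 to 24.9%), against 30.5% of all peaks and 31.0% of the remaining ones (30.1 to 31.8%). Peaks under 500 bp away were found beside 8 mouse regions (5.63%, 2.46 to 10.8%, all peaks 6.48%) and 27 cattle regions (5.27%, 3.50 to 7.58%, all peaks 11.6%). Leaving these out, gaps from 500 bp to 10 kb were found for 9.86% of mouse and 15.8% of cattle broad regions (12.8 to 19.3%), against 8.43% and 19.1% of the remaining peaks (cattle 18.4 to 19.9%). Relative to the remaining peaks, the cattle share was thus lowest at the shortest gaps. Within 100 kb the mouse sets also parted, at 50.7% (42.2 to 59.2%) for broad regions, 63.4% for remaining peaks and 63.1% for all. The cattle values at that distance were 69.9% (65.7 to 73.9%), 80.6% and 80.1%.

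The local number of peaks showed the same order. Within 500 kb of the midpoint a mouse broad region had a median of 3 other peaks (interval 3 to 4, quartiles 1 and 6) and a remaining peak 5 (4 to 5, quartiles 2 and 8). In cattle the medians were 6 (6 to 7, quartiles 4 and 12) and 8 (8 to 8, quartiles 4 and 14). Peaks of 1750 to 2000 bp had medians of 3 (3 to 4) in mouse and 7 (6 to 7) in cattle, so these numbers too changed by degrees with width. Within 50 kb the medians were equal, at 0 in mouse and 1 in cattle, and within 2 Mb they were 11.5 against 15 and 20 against 24. The ends of the distribution lay in the same direction, in part within counting error. No other peak within 500 kb was found for 20 mouse broad regions, 14.1% (8.82 to 20.9%), against 5.26% of remaining and 5.45% of all mouse peaks. The cattle values were 19 regions or 3.71% (2.25 to 5.74%), against 2.19% and 2.26%, and this interval included the share of all peaks. At least 10 others were found around 9.15% of mouse broad regions (4.97 to 15.2%) and 31.6% of cattle ones (27.6 to 35.9%), against 15.1% and 41.9% of remaining peaks. The mouse interval included the share of the remaining peaks. So did the cattle interval for at least 20 others, at 11.3% (8.7 to 14.4%) against 14.1%. Within chromosomes holding at least 5 broad regions, the broad median was the lower on 10 of 15 in mouse, the higher on 3 and tied on 2. In cattle these numbers were 18, 8 and 2 of 28.

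**Figure D3:**
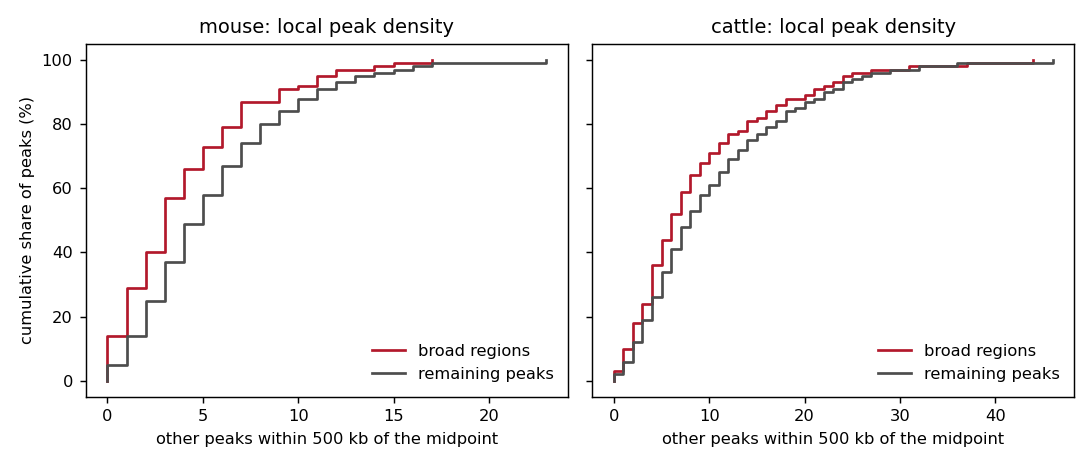
Cumulative share of peaks (y axis, percent) by the number of other peaks within 500 kb of the midpoint (x axis) for broad regions (red) and remaining peaks (grey). The red steps lie above the grey ones over most of the range in both lists, with medians of 3 against 5 in mouse and 6 against 8 in cattle.

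Several broad regions nevertheless lay in crowded neighbourhoods. In mouse, a region of 2089 bp on chromosome 8 (86398447 to 86400535) had 17 other peaks within 500 kb. It was followed by regions on chromosome 11 (101948309 to 101950336) with 16, chromosome 10 (128240696 to 128243013) with 15, and chromosomes 2 (118726676 to 118728821) and 11 (97560082 to 97562201) with 14 each. In cattle, a region of 2268 bp on chromosome 25 (36449697 to 36451964) had 44, its nearest peak lying 0.385 kb away. On the same chromosome a region of 2607 bp (36648219 to 36650825) had 40 and one of 2021 bp (27087018 to 27089038) had 38. Cattle chromosome 19 held regions with 43 (27667593 to 27670572) and 38 (27595321 to 27597405). The highest numbers around any remaining peak were 23 in mouse and 46 in cattle.

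At the other end stood regions with no company for more than 1 Mb. A mouse region of 2096 bp on chromosome 4 (76095120 to 76097215) lay 2197 kb from the nearest peak and one of 2360 bp on chromosome 3 (148651019 to 148653378) lay 2135 kb away, both without another peak within 2 Mb of the midpoint. Others were on chromosome 18 (16966123 to 16968232) at 1656 kb, chromosome 10 (27794194 to 27796549) at 1285 kb and chromosome 12 (39504899 to 39506959) at 1236 kb. The region on chromosome 18 had another broad region, of 2220 bp, as its nearest peak. In cattle the most isolated were on chromosome 22 (26320698 to 26322768) at 1762 kb, on chromosome 21 at 1577 kb (the region of 3528 bp above), and on chromosome 16 (19499631 to 19501887) at 1335 kb. Those on chromosomes 5 (86569666 to 86571850) and 7 (34720804 to 34722925) followed at 1047 and 1040 kb. Assembly gaps and sequence to which reads cannot be mapped were not used here, and their part in these distances was not tested.

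Across finer classes of width, chosen after the values were seen, the share of peaks with close company fell with width up to the broad regions. In mouse the share with another peak within 10 kb fell from 23.7% (18.2 to 30.0%) at 500 bp or less to 8.67% (6.08 to 11.9%) between 1500 and 1750 bp. It was 9.52% (5.31 to 15.5%) between 1750 and 2000 bp and 16.8% (10.3 to 25.3%) between 2000 and 2500 bp, with overlapping intervals. In cattle it fell from 50.7% (38.4 to 63.0%) in the narrowest class to 18.7% (15.1 to 22.8%) between 2000 and 2500 bp. Above 2500 bp it was 32.9% (23.1 to 44.0%), and this interval did not overlap that of the class below. The 85 cattle regions above 2500 bp had a median gap of 27.4 kb (14.4 to 64.4 kb), and those between 2000 and 2500 bp one of 52.4 kb (43.8 to 59.1 kb), with overlapping intervals. Set against all narrower cattle peaks, with a median of 27.1 kb, the median of the regions above 2500 bp differed by 0.307 kb. Of the same 2 classes, 10.6% and 4.22% had a peak under 500 bp away. The 35 mouse regions above 2500 bp gave 11.4% within 10 kb (3.20 to 26.7%) and a median gap of 111 kb (55.4 to 247 kb). The median number of other peaks within 500 kb was 3 in both mouse classes of broad regions and 6 in both cattle ones.

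**Figure D4:**
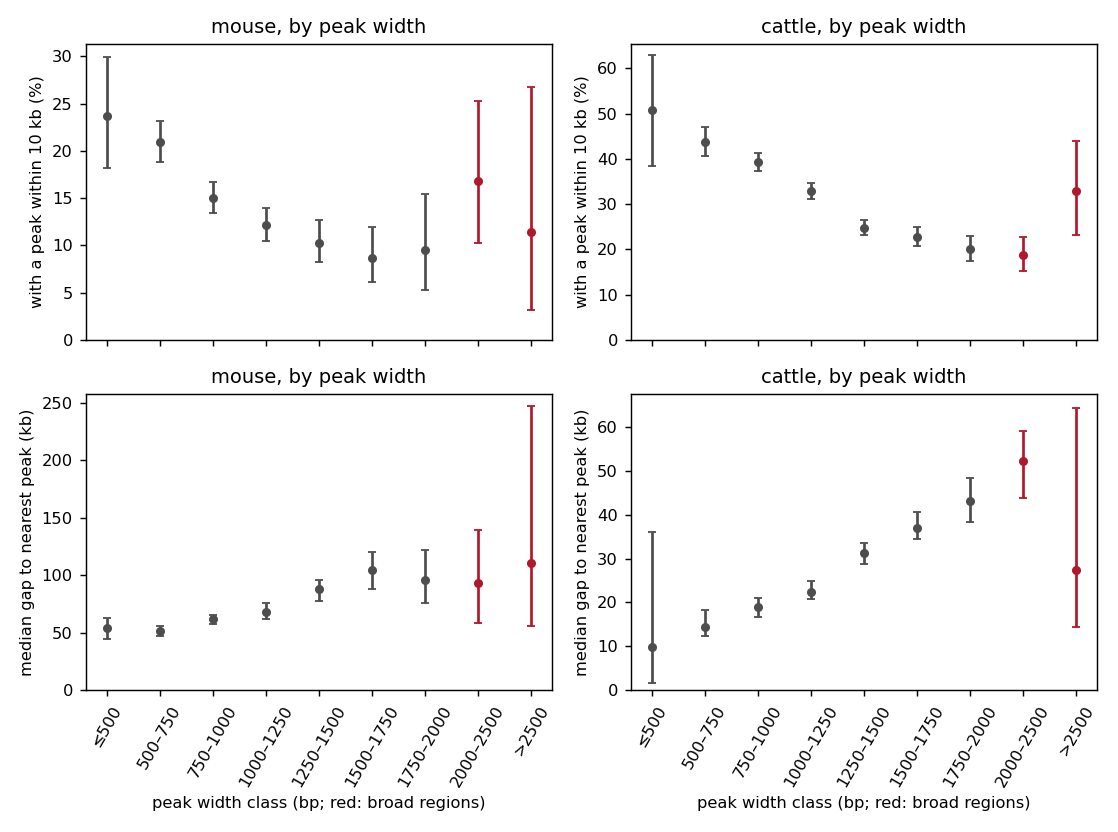
Share of peaks with another peak within 10 kb (top, percent) and median gap to the nearest peak (bottom, kb) by width class (x axis, bp), with 95% intervals and the broad classes in red. The cattle share falls to 18.7% between 2000 and 2500 bp and is 32.9% above 2500 bp, while the mouse intervals of the broad classes are wide.

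Most close companions of broad regions were not themselves broad, which held for peaks at large too. Over all peaks, the nearest peak at any distance was broad for 2.03% in mouse and 3.86% in cattle. The 22 mouse broad regions with a peak within 10 kb had companions of 442 to 1693 bp, median 1014.5 bp, none of them broad. Where a remaining mouse peak had a companion this close, that companion's median width was 850 bp. The 108 such cattle regions had companions of 551 to 3875 bp, median 1155.5 bp, against 1089 bp for the companions of remaining peaks, and for 3 of these regions the companion was itself wider than 2000 bp. The tightest mouse case was a region of 2931 bp on chromosome 18 (47526410 to 47529340) with a peak of 717 bp at 0.042 kb. On cattle chromosome 14 a region of 2749 bp (18212035 to 18214783) lay 0.002 kb from a peak of 855 bp. These 2 were chosen after their values were seen. Runs of 3 or more peaks with gaps of at most 10 kb held 4 mouse broad regions (2.82%, 0.773 to 7.06%, all peaks 1.98%) and 47 cattle ones (9.18%, 6.82 to 12.0%, all peaks 7.89%). Broad regions were thus in such runs at about the share of all peaks.

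Taking the nearest peak at any distance, its median width was 1011 bp for mouse broad regions (951 to 1088 bp) and 937 bp for remaining peaks (926 to 948 bp). The mouse intervals lay close but did not overlap. The mouse difference of 74 bp was 27.5 bp above 1800 bp, 34 bp for the widest 5% and 76 bp above 2500 bp. For mouse peaks of 1750 to 2000 bp the median width of the nearest peak was 911 bp. In cattle the values were 1228 bp (1167 to 1267 bp) and 1206 bp (1196 to 1216 bp), with overlapping intervals, and above 2500 bp the order turned to 1188 against 1207 bp. The nearest peak was itself broad for 5 mouse broad regions (3.52%, 1.15 to 8.03%) and 23 cattle ones (4.49%, 2.87 to 6.66%), where all peaks gave 2.03% and 3.86%. Both intervals included the share of all peaks.

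In mouse the closest pair of broad regions was on chromosome 11, where regions of 2426 bp (107329914 to 107332339) and 2111 bp (107407845 to 107409955) were 75.5 kb apart with no peak between them. A pair on chromosome 18 (15221087 to 15223430 and 15308037 to 15310256) was 84.6 kb apart, again with none between. The next pairs were on chromosome 3 (51143700 to 51145916 and 51363625 to 51365731) at 218 kb, chromosome 10 (119911905 to 119914607 and 120415040 to 120417082) at 500.4 kb, and chromosome 11 (100275251 to 100277405 and 100830272 to 100832459) at 553 kb. Within 1000 kb, 14 of 142 mouse regions had another broad region, and 217 of 512 cattle regions did. The cattle list has more broad regions over its chromosomes, so these counts are not comparable as shares. The share of all peaks with a broad region this near was not formed, so they do not show whether broad regions lie together.

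The cattle list held closer pairs, with 7 regions having another broad one within 10 kb and 49 within 100 kb. Here too the matching share of all peaks was not formed, and whether broad regions cluster was not tested. On chromosome 2, 3 broad regions followed each other within a run of 5 peaks, at 20810004 to 20812004 (2001 bp), 20817690 to 20819782 (2093 bp) and 20824716 to 20826997 (2282 bp), separated by 5.69 and 4.93 kb. The first of these is also one of the members just inside the limit. On chromosome 3 the region of 3875 bp was followed after 3.62 kb by one of 2241 bp (8109805 to 8112045). A pair on chromosome 7 (4668273 to 4670293 and 4677719 to 4680149) was 7.43 kb apart with 1 peak between, and one on chromosome 10 (42888316 to 42890371 and 42900665 to 42902755) was 10.3 kb apart with none. In windows of 1 Mb, 364 of the 433 cattle windows with a broad region had a single one and 9 had 3 or more. The fullest, on chromosome 10 from 36000001 to 37000000, had 4 broad regions among 24 peaks. In mouse, 132 of 137 windows had a single one and 5 had 2.

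Along the chromosome, the cattle broad regions were spread more evenly than the remaining peaks. The stretch between the outermost peaks of each chromosome was divided into 5 equal segments. In cattle the segments from lowest to highest coordinates held 19.5, 20.1, 20.3, 20.9 and 19.1% of broad regions, against 18.3, 17.9, 17.1, 19.8 and 26.9% of remaining peaks. The last segment thus held 98 broad regions (19.1%, interval 15.8 to 22.8%), below the share of the remaining peaks there. In mouse the last segment held 30 broad regions or 21.1% (14.7 to 28.8%) against 26.0% of the remaining peaks, a difference within counting error. The first mouse segment also held 30, or 21.1%, against 17.6%.

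**Figure D5:**
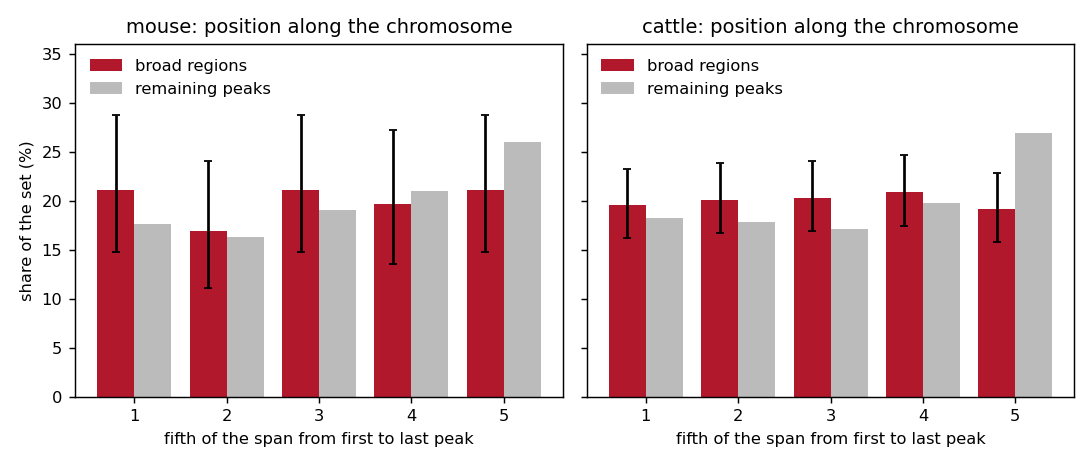
Share of broad regions (red, with exact 95% intervals) and of remaining peaks (grey) in 5 equal segments of each chromosome between its outermost peaks (x axis, from low to high coordinates), summed over chromosomes. The last segment holds 26.9% of remaining cattle peaks and 19.1% of cattle broad regions, and the mouse interval there includes the value of the remaining peaks.

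The number of regions above 2000 bp depends on where a peak caller ends one peak and starts the next. When peaks under 500 bp apart were joined, 213 mouse and 914 cattle regions exceeded 2000 bp, 3.44% and 8.24% of the joined lists. Of the original broad regions, 134 in mouse and 485 in cattle stayed single, and 8 and 27 became part of a joined region. A further 71 mouse and 402 cattle regions arose only from peaks of 2000 bp or less. All joined regions had a median span of 1856.5 bp in mouse (204 regions) and 2212 bp in cattle (665 regions), and 38.7% and 64.5% of them exceeded 2000 bp. The 402 cattle regions compare with 512 deposited as single broad peaks, and the 71 mouse ones with 142.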

How the data were processed

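Chromatin from fetal testis of mouse and cattle was profiled with 2 SOX9 libraries and 1 input library in each. For each species the authors deposited a single peak list without a header, which gives chromosome, start, end and a value that equals the peak width in bp in every line. Mouse coordinates were taken as mm9 and cattle ones as UMD3.1, per the submitters' processing notes. Not given in the sources used here are the aligner, peak caller, threshold and handling of replicates and input, and read depth is unknown. No annotation or sequence of these builds was used, so no gene or sequence is given and the planned gene context was not run.

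Starts are printed counted from 1. Gaps, counts of other peaks by midpoint, medians with order-statistic 95% intervals and shares with exact Clopper-Pearson 95% intervals were computed with Python 3.11.15, pandas 2.3.3 and scipy 1.17.1, and the distance code was tested on simulated data. All comparisons were made within a list, on numbered chromosomes.

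Regions named are, per species, the 5 widest, the 5 with most other peaks within 500 kb, the 5 most isolated, the 5 closest broad pairs, and the 3 on each side of the limit. Chromosomes named are the 3 highest and 3 lowest in share and those whose interval excludes the list's share. Some densely or sparsely bound ones and mouse chromosome 7 were added. Chromosomes where the broad median gap was the shorter were also listed, and the largest differences among them were picked after the values were seen. The members and rules were chosen with earlier results of these lists known.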

Additional observations from a re-analysis of the deposited data

How the results depend on the processing

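Of 114 alternative values, 83 stayed within the error of the reported value (1.5 times for counts), 20 moved and 11 changed sign. The number of broad regions became 254 in mouse and 1084 in cattle above 1800 bp, 35 and 85 above 2500 bp, 321 in mouse for the widest 5% of the list, and 914 in cattle after joining peaks under 500 bp apart, as those limits require. Chromosomes whose interval excluded the list's share, 2 in mouse and 5 in cattle, numbered 4 in mouse above 1800 bp, 0 in both above 2500 bp and 1 in mouse after joining. Among the 5 in cattle, chromosome 18 was borderline. The gap to the nearest peak stayed longer for broad regions under every alternative, but in cattle by 0.307 kb only above 2500 bp. The mouse share with a peak within 10 kb, 0.557 percentage points above the remaining peaks, turned to -3.27 above 1800 bp, -3.54 above 2500 bp, -2.95 for the widest 5%, -0.578 within 1 kb and -12.7 within 100 kb. The cattle difference of -9.88 points turned to 2.41 above 2500 bp and was -3.89 after joining. The difference in other peaks nearby, -2 in both lists within 500 kb, was 0 in both within 50 kb and -3.5 and -4 within 2 Mb. Both outermost segments together differed from the remaining peaks by -1.34 points in mouse, which turned to 0.589 after joining, and by -6.55 points in cattle, which became -15.6 above 2500 bp. The nearest peak of cattle broad regions, 21.5 bp wider, turned to -19 bp above 2500 bp and -7 bp after joining. The share on mouse chromosome 4 turned to 0.505 points above the list for the widest 5%. That on cattle chromosome 6 turned to -0.397 points above 2500 bp, where it had a single region. The cause of these changes was not tested. No paired analysis was possible because each list stands for the libraries of its species together and gives no value per replicate. This also prevented leaving any replicate out, and how the libraries were combined is not stated. With depth unknown, regions missed for want of reads cannot be told from unbound ones.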
